A study of Homo sapiens with 15 samples.

Results

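E2F transcription factors, their DNA-binding partner TFDP1 and the pocket proteins RBL1 and RBL2 were followed across oral epithelial lines and through depletion of the Y-box protein YBX1. The 10 genes E2F1, E2F2, E2F3, E2F4, E2F5, E2F6, E2F7, TFDP1, RBL1 and RBL2 were chosen by gene symbol, and all 10 were found among the 12995 genes of the deposited tables. The 15 libraries form 5 groups of 3. The normal line, OKF6, comes from oral epithelium and was not given doxycycline. The oral cancer lines SCC15 and SCC25 had been given Cas9 together with guide RNA to YBX1 that doxycycline switches on. The methods list more than 1 guide sequence and do not say which these libraries carry. The transduced cells were sorted on both fluorescent reporters and expanded in culture, with no cloning step named. In the SCC15 –YBX1 and SCC25 –YBX1 groups the guide was induced with doxycycline at 1 µg/mL for 3 days, and the SCC15 +YBX1 and SCC25 +YBX1 groups are the same lines without doxycycline, with no group that received doxycycline and lacked the guide. The labels mark the SCC15 and SCC25 libraries as YBX1 knockout both with and without doxycycline. In the treated cells YBX1 reads were reduced and not absent. The study found less YBX1 by Q-PCR and western blot and speaks of knockdown, the word used here. SCC15 was cultured with serum in DMEM, whereas the medium of OKF6 and SCC25 was a serum-free one for keratinocytes, so line and medium cannot be told apart wherever SCC15 is compared with the others.

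E2F factors bind promoters of genes for DNA replication and cell division, mostly as heterodimers with a DP protein such as TFDP1. E2F1, E2F2 and E2F3 are mainly known as activators, E2F4 and E2F5 as repressors that act with pocket proteins, and E2F6 and E2F7 as repressors that do without them. The pocket proteins RB1, RBL1 (p107) and RBL2 (p130) hold E2F factors back until cyclin-dependent kinases phosphorylate them, and RBL1 or RBL2 with E2F4 and the MuvB core form the DREAM complex of resting cells. Several E2F and pocket protein genes have E2F sites in their own promoters, which is why the stretches before the starts of 4 of them are shown here, beside that of E2F7, whose stretch holds the motif to which YBX1 owes its name. The letters come from RefSeq on GRCh38.p14, read in the direction of the gene for the 80 bases before its start, and capitals mark an E2F site (TTTCCCGC, TTTGGCGC, TTTCGCGC or TTTGCCGC, on either strand) or a Y-box (CTGATTGG, on either strand).
E2F1 (chr20:33686386-33686465, minus strand): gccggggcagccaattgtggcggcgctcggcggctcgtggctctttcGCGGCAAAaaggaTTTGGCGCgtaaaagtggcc
E2F2 (chr1:23531234-23531313, minus strand): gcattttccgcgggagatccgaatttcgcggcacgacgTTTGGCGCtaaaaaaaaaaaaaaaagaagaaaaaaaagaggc
E2F3 (chr6:20401799-20401878, plus strand): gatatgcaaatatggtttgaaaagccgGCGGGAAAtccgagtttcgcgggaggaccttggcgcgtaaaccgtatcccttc
RBL1 (chr20:37095998-37096077, minus strand): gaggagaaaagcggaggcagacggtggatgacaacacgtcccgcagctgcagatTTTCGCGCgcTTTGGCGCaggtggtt
E2F7 (chr12:77065570-77065649, minus strand): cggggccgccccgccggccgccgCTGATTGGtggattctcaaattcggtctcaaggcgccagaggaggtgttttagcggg

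Promoters on chromosome 8, where E2F5 lies, were left out of the search, and 9 of the 10 members had promoters among the rest. Those 9 had 11 promoters, and a member counted if any of them held the motif, while shares of all promoters are per promoter. Within the 250 bases before the start, 5 of the 9 held an E2F site (E2F1, E2F2, E2F3, TFDP1 and RBL1), against 2.79% of the 35116 promoters searched. The sites of E2F1 began 33 and 20 bases before the start and those of RBL1 26 and 16 bases before it. The Y-box was found in E2F7 alone of the 9, 57 bases before its start, against 3.81% of all promoters. Its last 5 letters are the CCAAT box read on the other strand, which 4 of the 9 held (E2F1, E2F3, E2F7 and RBL2) and 32% of all promoters. TTTGAA, the core of the cell cycle homology region CHR, was found in E2F3 alone of the 9, against 13.3% of all promoters. These matches describe letters in a window and say nothing of binding in these cells.

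RNA was read from the 3′ end of each mRNA (QuantSeq FWD), so that a transcript gives a read at its end whatever its length, and levels are given on a log2 scale as CPM (reads scaled to a common library size, with 0.5 reads added to each gene). Counted reads per library lay between 4075290 and 6118501, and 1 read was worth 0.138 to 0.226 CPM. Lines were compared in their +YBX1 or untreated state with limma over all 12995 genes, two-sided, with Benjamini-Hochberg adjustment, and a difference was called at an adjusted p under 0.05. Nothing in the labels says that replicates are separate cultures, so p-values measure the spread between these samples, which may be technical. The labels were checked against epithelial markers before the members were read. In OKF6 and SCC25 +YBX1 all 10 keratinocyte markers measured (KRT5, KRT14, KRT17, KRT6A, TP63, CDH1, DSP, DSG3, PKP1 and PERP) were above 3 reads in at least 1 library, with summed levels of 27580 to 37770 and 10570 to 22570 CPM. The libraries labelled SCC15 +YBX1 held 207 to 213 CPM of them and the SCC15 –YBX1 libraries 160 to 193. Of the 10 markers, 8 were above 3 reads in at least 1 SCC15 +YBX1 library. In that group DSP had 513 to 608 reads and PERP 498 to 699. In the SCC15 +YBX1 libraries TP63 had 0 to 1 reads and CDH1, which encodes E-cadherin, 1 to 14, and all 10 markers were called lower than in either other line. Of the other cell types listed, 2 of 7 fibroblast, 2 of 5 leukocyte and 0 of 3 endothelial markers are in the tables. LUM, a fibroblast marker, had 2 to 15 reads in SCC15 +YBX1, 0 in OKF6 and 0 to 1 in SCC25 +YBX1. COL1A1, the other fibroblast marker in the tables, went the other way. Its mean was 3.99 log2 CPM in SCC15 +YBX1, 5.16 in OKF6 and 5.56 in SCC25 +YBX1. The libraries labelled SCC15 thus held far less of the keratinocyte marker profile than the other lines. The study classed SCC15 as mesenchymal-like, and its western blots showed no CDH1 in that line. SCC15 stands here for the label and not for an identity that these data bear out. The part of these markers in the results on SCC15 was not tested, and the comparison of SCC25 with OKF6, which leaves those libraries out of the contrast, is given for every member. Within OKF6, replicate 1 stood apart from the others, and results that change without it are named. Bulk RNA does not tell fewer expressing cells from less RNA per cell.

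SCC15 had more RNA of the activators E2F1 and E2F3 and of E2F5, and less of E2F4 and RBL1, than SCC25, while E2F2 was at the edge of the threshold there. Against OKF6 it was higher in E2F1, E2F2, E2F5 and E2F6 and lower in E2F4 and E2F7. SCC25 differed from OKF6 in 2 members, with E2F2 higher and E2F7 lower. In counts, SCC15 against OKF6 had 4 members higher and 2 lower, where 26.9% of all genes were called higher and 23.4% lower. SCC15 against SCC25 had 3 higher and 2 lower, with 20.0% and 23.6% of all genes called, and SCC25 against OKF6 had 1 and 1, with 18.9% and 11.3%. Replicates did not overlap for 7, 7 and 4 members in these comparisons, against 54.4%, 66.6% and 43.3% of all genes, so the members differed between lines about as often as genes in general. The comparisons share the libraries of each line and are not independent of one another.

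**Figure D1:**
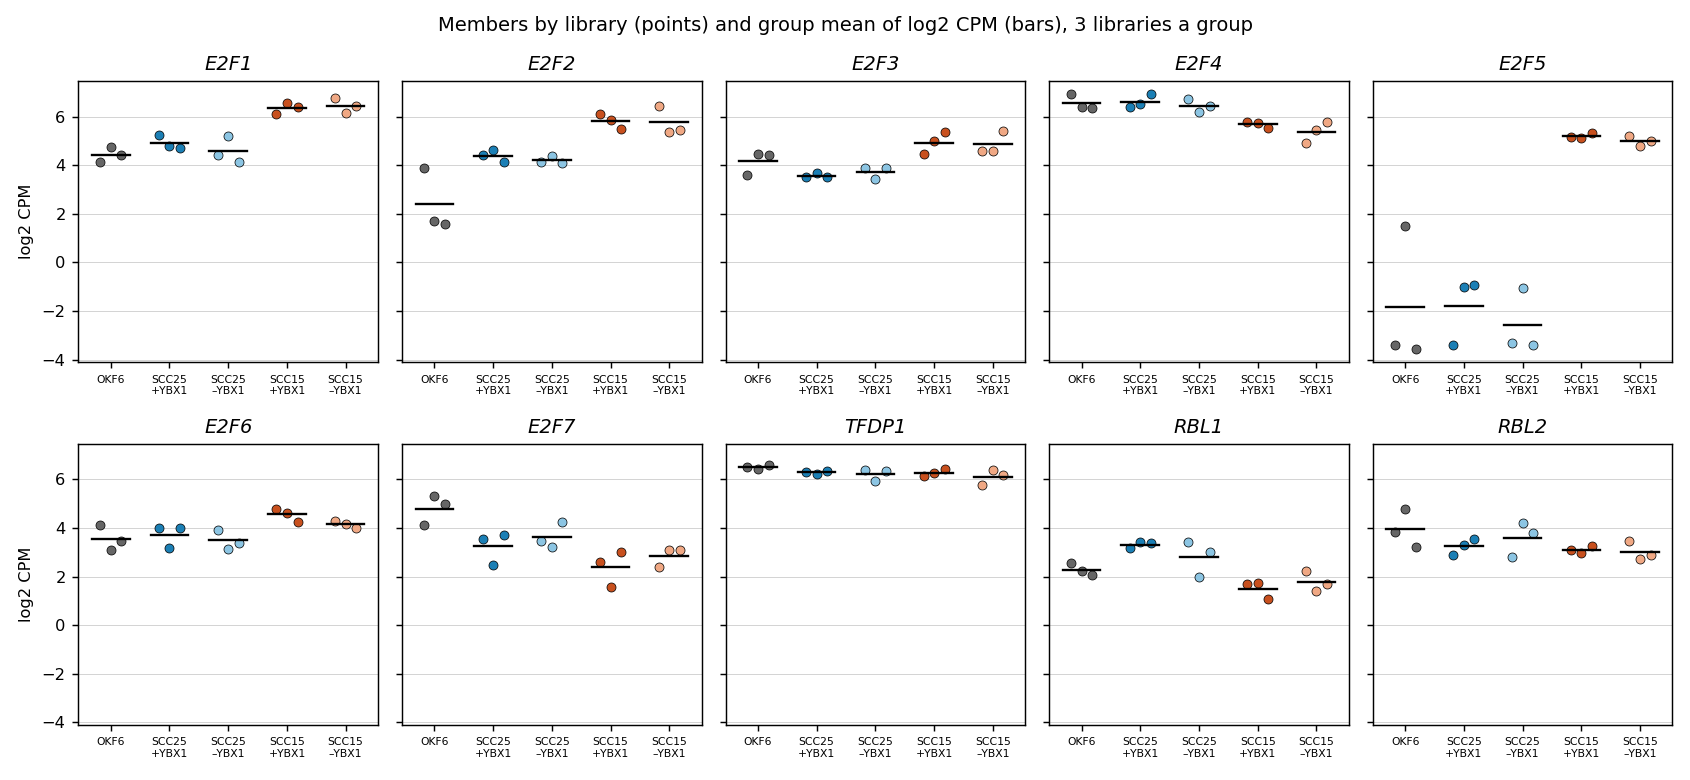
Level of each of the 10 members in log2 CPM (vertical axis) in the 15 libraries, by group (horizontal axis), with points for libraries and bars for the mean of 3. In SCC15, E2F1, E2F2 and E2F5 sit above every OKF6 and SCC25 library and E2F4 below them, while the –YBX1 and +YBX1 points of each line overlap for every member.

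E2F1 (Entrez Gene 1869, chr20:33675477-33686385, minus strand, hg38), the founding activator of the family, measured 4.12, 4.74 and 4.44 log2 CPM in OKF6. In SCC25 +YBX1 it measured 5.25, 4.79 and 4.72, and in SCC15 +YBX1 6.11, 6.55 and 6.41. Every SCC15 library was above all others, while the lowest SCC25 library lay below the highest OKF6 library. The means were 4.43 ± 0.31, 4.92 ± 0.29 and 6.36 ± 0.23 (SD, n = 3). SCC15 exceeded OKF6 by 1.93 on the log2 scale, or 3.80-fold (SE 0.25, limma adjusted p = 7.32e-05), and SCC25 by 1.44, or 2.71-fold (adjusted p = 0.000766). SCC25 and OKF6 differed by 0.49 with an interval of -0.06 to 1.03 and an adjusted p of 0.16 (limma), so a difference of up to 1.03 is within the error.

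E2F2 (Entrez Gene 1870, chr1:23506438-23531233, minus strand, hg38), also an activator, measured 3.89, 1.71 and 1.56 log2 CPM in OKF6, where replicate 1 stood far above the others. It measured 4.43, 4.62 and 4.15 in SCC25 +YBX1 and 6.13, 5.85 and 5.50 in SCC15 +YBX1. The 3 lines did not overlap, and they took the order OKF6, SCC25, SCC15. SCC15 exceeded OKF6 by 3.44, or 10.8-fold (SE 0.53, limma adjusted p = 0.000301), with 3.02 to 4.19 when a library was left out. SCC25 exceeded OKF6 by 2.01, or 4.03-fold (limma adjusted p = 0.0166). That call ended without OKF6 replicate 3 (adjusted p = 0.0549), without SCC25 +YBX1 replicate 1 (0.0531) or replicate 2 (0.0637), and when those 2 lines alone were fitted (0.0569). SCC15 exceeded SCC25 by 1.43 with an adjusted p of 0.0513 (limma), just outside the threshold. It passed in 8 of 9 alternative fits to all libraries or to the compared groups (adjusted p from 0.00027 to 0.0498), the fit with no variance trend being the exception. It also passed without OKF6 replicate 1 (0.000841), replicate 2 (0.0384) or replicate 3 (0.036), which changes only the estimate of the spread.

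E2F3 (Entrez Gene 1871, chr6:20401879-20493714, plus strand, hg38) encodes an activator and, from an alternative start, a shorter form that 3′ reads do not separate. It measured 3.60, 4.44 and 4.44 log2 CPM in OKF6, 3.53, 3.69 and 3.50 in SCC25 +YBX1 and 4.44, 4.99 and 5.35 in SCC15 +YBX1. SCC15 lay above SCC25 in every library, by 1.35 or 2.55-fold (SE 0.33, limma adjusted p = 0.00677). SCC15 and OKF6 met at the lowest SCC15 library, and their difference of 0.77 was not called (adjusted p = 0.0746). It was called without SCC15 +YBX1 replicate 1 (1.01, adjusted p = 0.0381), with library medians made equal (0.93, adjusted p = 0.0319) and with quantile normalization (0.93, adjusted p = 0.0285). SCC25 minus OKF6 was -0.59 (adjusted p = 0.201), and -0.87 without OKF6 replicate 1 (adjusted p = 0.0378), where it was called.

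E2F4 (Entrez Gene 1874, chr16:67192155-67198918, plus strand, hg38), the repressor E2F of resting cells, went the other way. It measured 6.94, 6.40 and 6.35 log2 CPM in OKF6, 6.38, 6.54 and 6.92 in SCC25 +YBX1, and 5.79, 5.73 and 5.55 in SCC15 +YBX1. All SCC15 libraries were below all OKF6 and SCC25 libraries, which overlapped each other. SCC15 minus OKF6 was -0.87, or 1.83-fold lower (SE 0.22, limma adjusted p = 0.00671), and SCC15 minus SCC25 was -0.92, or 1.90-fold lower (adjusted p = 0.00606). SCC25 minus OKF6 was 0.05, with an interval of -0.44 to 0.53.

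E2F5 (Entrez Gene 1875), a repressor that binds pocket proteins as E2F4 does, separated the lines most. It had 0, 12 and 0 reads in OKF6, 0, 2 and 2 in SCC25 +YBX1, and 196, 203 and 260 in SCC15 +YBX1. Detection was thus at the floor of 3 reads in SCC25 and in 2 of the 3 OKF6 libraries, and OKF6 replicate 2 stood apart. With libraries pooled, SCC15 held 36.8 CPM and SCC25 0.263 CPM, a ratio of 140 with a 95% counting interval of 54.4 to 515. Against OKF6 the ratio was 47.8 (27.2 to 92.9), and without OKF6 replicate 2 SCC15 was at least 64-fold higher, taking 3 reads per library as the floor. These intervals cover counting error only. The fitted difference passed in both comparisons (limma adjusted p = 0.000647 against OKF6 and 0.000846 against SCC25) and in all leave-one-out fits. SCC25 minus OKF6 was 0.03 with an interval of -2.66 to 2.71 (limma adjusted p = 0.989), a value that rests on few reads. The last 500 bases of the transcript overlap RBIS on the other strand, and whether the counting used strand is not given in the sources used here. RBIS had 198 to 246 reads in SCC25 +YBX1 while E2F5 had 0 to 2.

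E2F6 (Entrez Gene 1876, chr2:11444375-11466177, minus strand, hg38) acts as a repressor with a Polycomb complex, PRC1.6. It measured 4.10, 3.08 and 3.47 log2 CPM in OKF6, 3.99, 3.16 and 3.99 in SCC25 +YBX1 and 4.78, 4.63 and 4.26 in SCC15 +YBX1. SCC15 was above all other libraries of the lines. Its excess over OKF6 was 1.01, or 2.01-fold (SE 0.36, limma adjusted p = 0.0386). The call was lost without OKF6 replicate 2 (adjusted p = 0.0991) or 3 (0.0779), SCC15 +YBX1 replicate 1 (0.116), 2 (0.105) or 3 (0.0528), or SCC25 +YBX1 replicate 1 (0.0529) or 3 (0.0527), and when those lines alone were fitted (0.058). The difference from SCC25 was 0.84 (adjusted p = 0.0843), and it was called without OKF6 replicate 1 (0.0421), when those lines alone were fitted (0.0259) and with quantile normalization (0.0455). SCC25 minus OKF6 was 0.17 (adjusted p = 0.761). Of 10 PRC1.6 genes listed, 9 were measured, and SCC15 against SCC25 had 3 higher (L3MBTL2 by 1.66, RNF2 by 1.31 and RYBP by 0.93, a call held in 3 of 9 leave-one-out fits) and 2 lower (MAX at -0.93 and WDR5 at -0.76). Against OKF6, SCC15 had 3 higher and 0 lower, and SCC25 had 2 higher and 1 lower. Over all genes 20.0% were higher and 23.6% lower in SCC15 against SCC25. The shares were 26.9% and 23.4% for SCC15 against OKF6, and 18.9% and 11.3% for SCC25 against OKF6.

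E2F7 (Entrez Gene 144455, chr12:77021248-77065569, minus strand, hg38) is an atypical E2F that binds DNA without a DP partner and represses E2F targets late in S phase. It measured 4.10, 5.30 and 4.98 log2 CPM in OKF6, 3.53, 2.49 and 3.72 in SCC25 +YBX1 and 2.61, 1.56 and 3.02 in SCC15 +YBX1. OKF6 was above all +YBX1 libraries of both cancer lines, which overlapped each other. SCC15 minus OKF6 was -2.40, or 5.27-fold lower (SE 0.50, limma adjusted p = 0.00226). SCC25 minus OKF6 was -1.55, or 2.92-fold lower (adjusted p = 0.0395), a call that was lost without any 1 of OKF6 replicate 2 (0.103) or 3 (0.0948), SCC15 +YBX1 replicate 1 (0.0557), and SCC25 +YBX1 replicate 1 (0.0725), 2 (0.154) or 3 (0.0547), and with no variance trend (0.0518). SCC15 minus SCC25 was -0.85 (adjusted p = 0.195). The other atypical factor, E2F8, had 1 to 35 reads in OKF6, 3 to 8 in SCC25 +YBX1 and 14 to 25 in SCC15 +YBX1, and no comparison of the lines called it.

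TFDP1 (Entrez Gene 7027, chr13:113584721-113641473, plus strand, hg38), the DP subunit that pairs with most E2F factors, was the steadiest member. Its 9 libraries of the 3 lines lay between 6.15 and 6.58 log2 CPM, and no comparison was called. The intervals of the difference were -0.58 to 0.15 for SCC15 minus OKF6, -0.57 to 0.16 for SCC25 minus OKF6 and -0.38 to 0.36 for SCC15 minus SCC25. Of 86 pieces of 75 bases cut from its last 500 bases, 18 matched another place in hg38 as well as their own, so its reads may be shared with those places, depending on how multiple matches were counted. TFDP2, the other DP gene measured, had mean levels of 4.95 ± 0.99 in OKF6, 6.06 ± 0.11 in SCC25 +YBX1 and 5.93 ± 0.05 in SCC15 +YBX1 (SD, n = 3), with no comparison called.

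RBL1 (Entrez Gene 5933, chr20:36996349-37095997, minus strand, hg38) encodes p107 and measured 2.55, 2.21 and 2.05 log2 CPM in OKF6. It measured 3.16, 3.42 and 3.36 in SCC25 +YBX1 and 1.67, 1.72 and 1.06 in SCC15 +YBX1. The 3 lines did not overlap, with SCC25 highest and SCC15 lowest. E2F1 and E2F2, whose promoter stretches hold the same TTTGGCGC, had every SCC15 +YBX1 library above those of SCC25 +YBX1. The part of the site in these levels was not tested. SCC15 minus SCC25 was -1.83, or 3.56-fold lower (SE 0.40, limma adjusted p = 0.00337). SCC25 minus OKF6 was 1.05 (adjusted p = 0.0683), called without OKF6 replicate 1 (0.0459), with voom weights (0.0455) and with no variance trend (0.0194). SCC15 minus OKF6 was -0.79 (adjusted p = 0.122), called with no variance trend (0.0364). The gene rests on 13 to 54 reads a library in these lines, so single libraries weigh heavily.

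RBL2 (Entrez Gene 5934, chr16:53433977-53491648, plus strand, hg38), which encodes p130, measured 3.84, 4.79 and 3.23 log2 CPM in OKF6, where the replicates spread most. It ranged from 2.89 to 3.55 in SCC25 +YBX1 and from 2.97 to 3.24 in SCC15 +YBX1, overlapping each other. SCC15 minus OKF6 was -0.85 (limma adjusted p = 0.113) and was called without OKF6 replicate 3 (-1.21, adjusted p = 0.0274). SCC25 minus OKF6 was -0.71, with an interval of -1.63 to 0.22. At the 3′ end 11 of 86 pieces matched elsewhere, and AKTIP, on the other strand, had 2.00 to 5.56 CPM in these lines. RB1, the third pocket protein, was lower in both cancer lines than in OKF6, by -1.36 in SCC15 and -1.24 in SCC25 on the log2 scale, with 224 to 317 reads in SCC15 +YBX1, 236 to 261 in SCC25 +YBX1 and 375 to 844 in OKF6.

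**Figure D2:**
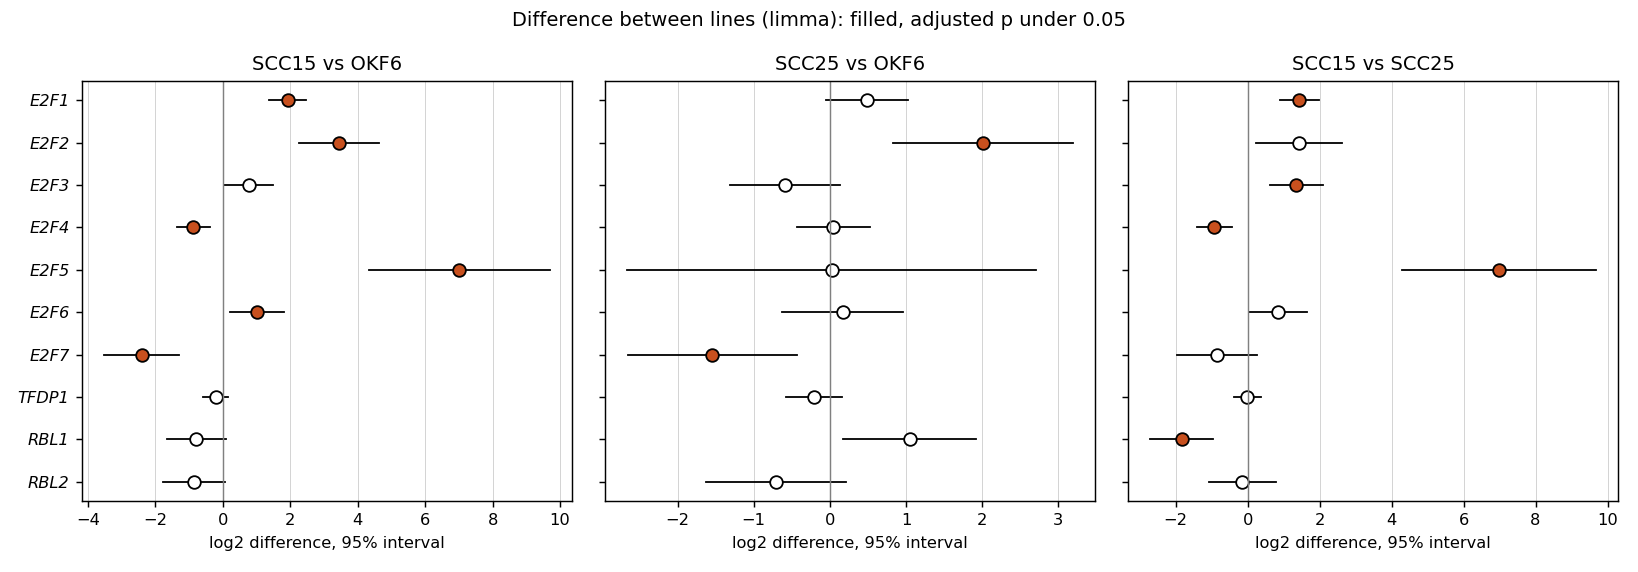
Difference between lines in log2 units (horizontal axis, its range set per panel) for each member, with 95% intervals from limma and filled points where the adjusted p was under 0.05. E2F5 lies farthest from 0 where SCC15 is compared, at fitted values that depend on the 0.5 reads added because OKF6 and SCC25 held 0 to 12 reads, and no TFDP1 point is filled.

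The balance among the E2F genes differed between lines in the same way. Of the reads on E2F1 to E2F7, those on the activators E2F1, E2F2 and E2F3 made up 22.0% to 27.6% in OKF6, 26.8% to 39.1% in SCC25 +YBX1 and 56.4% to 61.5% in SCC15 +YBX1. The share of E2F4 was 45.3% to 61.1% in OKF6, 45.9% to 58.9% in SCC25 +YBX1 and 16.5% to 19.4% in SCC15 +YBX1. SCC15 did not overlap the others in either share. E2F5 gave 11.5% to 14.1% in SCC15 +YBX1, and at most 1.46% in any library of the other lines. Together the 7 genes took 170 to 201 CPM in OKF6, 172 to 205 in SCC25 +YBX1 and 285 to 298 in SCC15 +YBX1. With doxycycline the activators kept 28.6% to 42.8% of the E2F reads in SCC25 and 58.4% to 70.6% in SCC15, ranges that overlap those without it. These shares restate the values given for the single genes and were not tested apart from them.

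**Figure D3:**
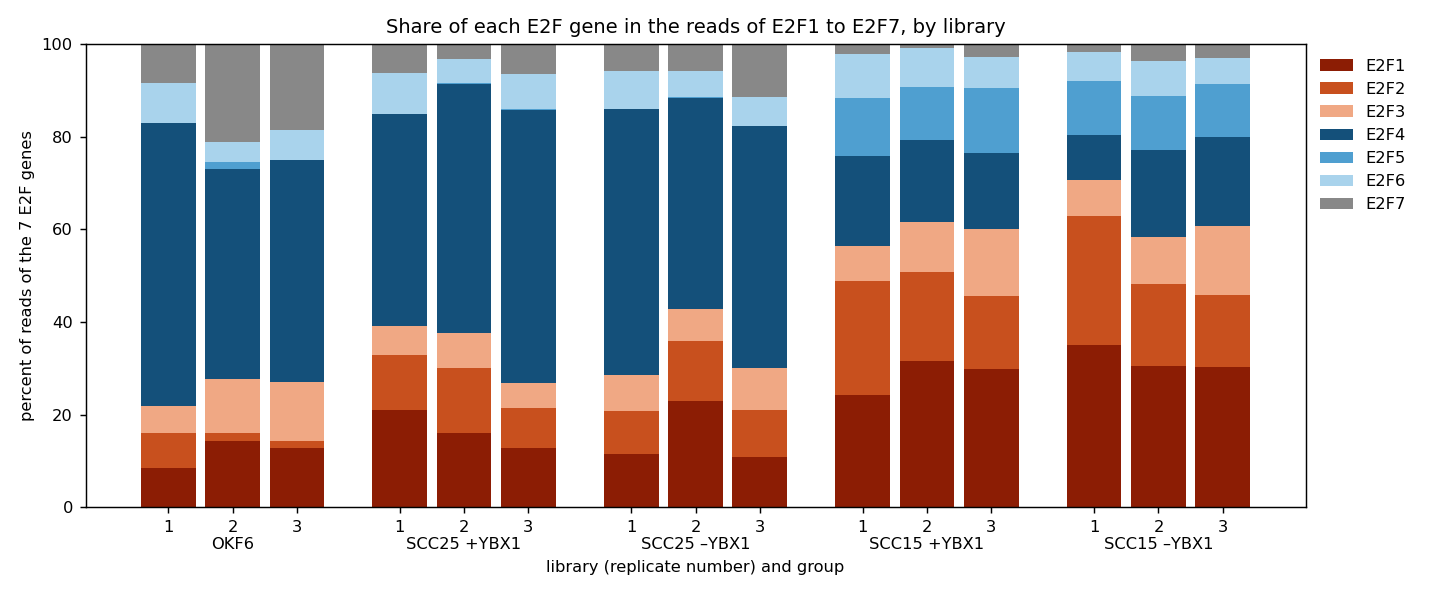
Share of each E2F gene in the reads of E2F1 to E2F7 (vertical axis, percent) in each of the 15 libraries, grouped along the horizontal axis. The activators E2F1, E2F2 and E2F3, at the bottom in reds, take 56.4% to 61.5% in SCC15 +YBX1 and 22.0% to 27.6% in OKF6.

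Genes known as E2F targets of the G1/S transition were called higher in SCC15 more often than lower. Of 29 replication and nucleotide genes, 15 were higher and 2 lower than in OKF6, where 26.9% of all genes were higher and 23.4% lower, with a median difference of 1.01 against 0.10 over all genes. Against SCC25 15 were higher and 1 lower, beside 20.0% and 23.6% of all genes, with a median of 0.87 against -0.01. CCNE1, the cyclin that drives CDK2 at that transition, was higher by 3.10 and 2.16 on the log2 scale, CDC25A, a phosphatase that activates CDK2, by 2.23 and 2.06, and CDT1, which loads the replicative helicase, by 1.54 and 1.26. The MCM helicase subunits MCM6 and MCM7 were each higher by 1.44 than in OKF6, and by 1.40 and 1.12 than in SCC25. TK1, thymidine kinase, was lower at -0.66 and -0.73, calls that held in 1 and 3 of 9 leave-one-out fits. In SCC25 against OKF6, 4 were higher (MCM2, MCM10, POLA2 and UNG) and 3 lower (PCNA, SLBP and CCNE2), with a median of 0.16 against 0.13 over all genes. In that comparison 18.9% of all genes were higher and 11.3% lower. The 20 mitotic genes known as DREAM and B-MYB targets had 4 higher and 1 lower in SCC15 against OKF6, the same counts in SCC25 against OKF6, and 2 and 1 between the cancer lines, with medians of 0.07, 0.08 and 0.19. AURKB and CDC25C, which drive mitosis, were higher in both cancer lines, and CENPE, a kinetochore motor, was lower. With library medians made equal the SCC15 values moved up by 0.16 against OKF6 and by 0.15 against SCC25, less than the G1/S medians.

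**Figure D4:**
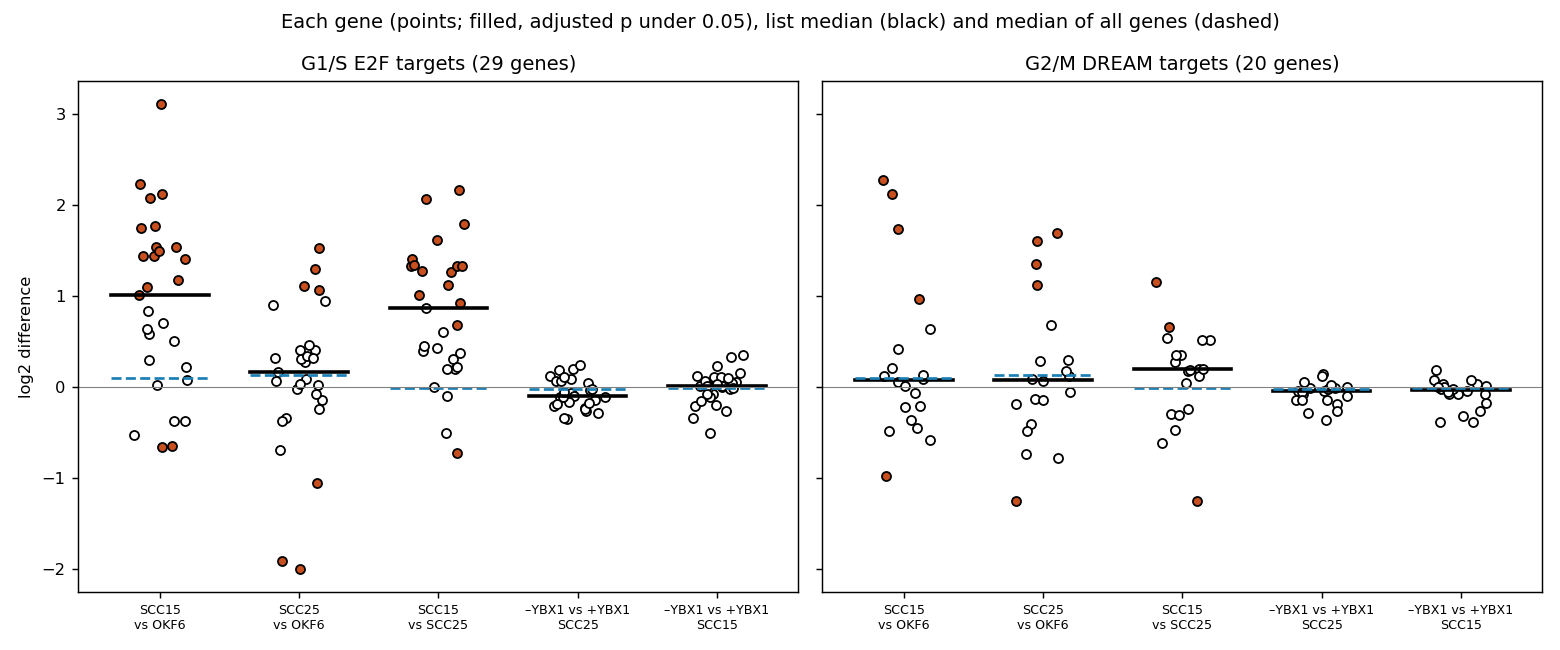
Log2 difference (vertical axis) of each gene in the lists of 29 G1/S and 20 G2/M targets for 5 comparisons (horizontal axis), filled where the adjusted p was under 0.05, with the list median as a black line and the median of all genes dashed. The G1/S median is 1.01 in SCC15 against OKF6 and 0.87 against SCC25, and no point is filled in the knockdown comparisons.

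The kinases and inhibitors that set the state of the pocket proteins differed gene by gene. Of 9 cyclin and kinase genes, SCC15 had 3 higher and 3 lower than OKF6 (26.9% and 23.4% of all genes), SCC25 had 2 higher and 3 lower than OKF6 (18.9% and 11.3%), and SCC15 had 2 higher and 2 lower than SCC25 (20.0% and 23.6%). CCND1, which encodes cyclin D1, had 717 to 1058 CPM in SCC25 +YBX1, 85.5 to 135 in OKF6 and 4.22 to 14.2 in SCC15 +YBX1, with no overlap. CDK4 was higher in both cancer lines than in OKF6, by 1.72 in SCC15 and 1.96 in SCC25, while CDK6 was lower, at -2.69 and -1.83, and so was CCND2, at -3.51 and -3.60. Among 7 inhibitor genes 3 were higher and 2 lower in SCC15 than in OKF6, 1 and 1 in SCC25 than in OKF6, and 2 and 2 in SCC15 than in SCC25. The shares of all genes are those given for the cyclin and kinase genes. CDKN2A, which encodes the CDK4 and CDK6 inhibitor p16, had 7 reads over the 3 SCC25 +YBX1 libraries, against 2722 in OKF6 and 5035 in SCC15 +YBX1, ratios of 379 (95% counting interval 184 to 945) and 611 (296 to 1519). CDKN2C, a related inhibitor, was higher in SCC15 by 2.19 than in OKF6 and by 3.14 than in SCC25, with SCC25 minus OKF6 at -0.95 and not called. CDKN1A, which encodes p21, was lower in SCC15, at -1.78 and -1.84, with SCC25 minus OKF6 at 0.06 and not called. SKP2, a ubiquitin ligase subunit that targets E2F1, was the 1 of 3 turnover genes called, higher in SCC15 by 1.15 and 0.81, with SCC25 minus OKF6 at 0.34 and not called.

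Members of the DREAM and MuvB machinery mostly did not pass. Of 8 genes, SCC15 had 1 higher than OKF6 (RBBP4, a histone chaperone, by 1.29) and 2 higher than SCC25 (RBBP4 by 1.77 and LIN54, the DNA-binding subunit, by 1.44). SCC25 had LIN54 lower than OKF6, at -1.20, a call that held in 4 of 9 leave-one-out fits. Of 8 apoptosis genes known as E2F1 targets, SCC15 had 3 higher and 3 lower than OKF6 and 3 higher and 2 lower than SCC25, and SCC25 had 1 higher and 2 lower than OKF6. Over all genes 50.3%, 43.6% and 30.2% were called in either direction in these comparisons, which are those of the DREAM and MuvB genes too. CASP8, an initiator caspase, was lower than in OKF6 in SCC15, at -2.42, and in SCC25, at -1.25.

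In the –YBX1 groups the targeted gene was checked first. YBX1 (Entrez Gene 4904, chr1:42682418-42703805, plus strand, hg38) had 568, 401 and 471 reads in SCC25 without the guide induced and 193, 134 and 65 reads after induction. For SCC15 there were 189, 279 and 414 reads without doxycycline and 74, 81 and 58 with it. Neither line overlapped, and the log2 changes were -2.01 (SE 0.35) and -2.15 (SE 0.35), or 4.03-fold and 4.45-fold lower. In limma the unadjusted p of YBX1 was 4.97e-05 in SCC25 and 2.51e-05 in SCC15, and the p adjusted over all genes was 0.29 and 0.326. In either line 0.00% of genes passed (3.09% and 2.32% at an unadjusted p under 0.05). Without SCC25 –YBX1 replicate 3, the library with the fewest YBX1 reads of its group, the SCC15 knockdown of YBX1 passed (adjusted p = 0.0202, 1 gene of all), and without SCC25 –YBX1 replicate 2 the SCC25 comparison called 6 genes, YBX1 not among them. An exact permutation test of 3 libraries against 3 cannot give a p below 0.10. LUM moved with the knockdown in SCC25, with 0 to 1 reads without doxycycline and 8 to 11 with it (limma adjusted p = 0.29). COL1A1, the other fibroblast marker measured, went the other way, from a mean of 5.56 to 5.26 log2 CPM, and did not pass. The part of these markers in the knockdown values was not tested.

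No member was called on knockdown in SCC25 or SCC15, and none in the difference between the lines, where 0.00% of all genes passed (limma), with 0 members at an unadjusted p under 0.05. No member had groups without overlap in either line, against 7.31% of genes in SCC25 and 7.04% in SCC15. Apart from E2F5, the fitted changes ran from -0.52 (RBL1) to 0.39 (E2F7) in SCC25 and from -0.40 (E2F6) to 0.46 (E2F7) in SCC15. Their 95% intervals reached -1.39 and 1.35 in SCC25 and -1.02 and 1.42 in SCC15, so changes of that size are within the error and the values do not show that the members stayed the same.

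Among the activators, E2F1 in SCC25 measured 5.25, 4.79 and 4.72 log2 CPM without doxycycline and 4.42, 5.18 and 4.15 with it. Replicates 1 and 3 were lower with doxycycline and replicate 2 was higher, and the change was -0.34 with an interval of -0.90 to 0.23. In SCC15 the E2F1 libraries with doxycycline measured 6.78, 6.16 and 6.42, a change of 0.10 (-0.47 to 0.66). The difference between the changes in the lines was -0.43 for E2F1, with an interval of -1.23 to 0.36 (limma adjusted p = 1.00). E2F2 was lower in all 3 pairs of SCC25 libraries with the same number, by 0.06 to 0.29, and in 2 of 3 pairs of SCC15. The labels do not say that equal numbers mark pairs. The E2F2 change was -0.20 (-0.78 to 0.39) in SCC25 and -0.07 (-0.65 to 0.52) in SCC15, and the groups overlapped in each line.

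Of the 10 members, 2 were lower in all 3 same-numbered pairs of SCC25 and 1 in all 3 pairs of SCC15. The share of all genes that do so was not counted, and the pairing is uncertain, so no shared response is read from this. E2F6 was the member found in both lines, with pair differences of -0.60 to -0.02 for SCC25 and -0.48 to -0.25 for SCC15. It measured 3.99, 3.16 and 3.99 log2 CPM in SCC25 +YBX1 and 3.93, 3.14 and 3.39 in SCC25 –YBX1, and 4.78, 4.63 and 4.26 against 4.30, 4.17 and 4.01 in SCC15. The changes were -0.23 (-0.85 to 0.39) and -0.40 (-1.02 to 0.22), and the groups overlapped in each line. E2F7, whose promoter stretch holds the Y-box, changed by 0.39 (-0.56 to 1.35) in SCC25 and by 0.46 (-0.50 to 1.42) in SCC15, with 2 of 3 pairs higher in each. E2F4 changed by -0.16 and -0.31, TFDP1 by -0.06 and -0.17, and E2F3 by 0.17 and -0.07, each with 1 pair against the others in both lines. RBL1 changed by -0.52 (-1.39 to 0.35) in SCC25, where replicate 2 had 54 reads without doxycycline and 20 with it, and by 0.29 (-0.58 to 1.16) in SCC15. RBL2 changed by 0.35 and -0.08. E2F5 had 0 to 2 reads in both SCC25 groups, so no fold is given there, and 170 to 267 reads in SCC15 –YBX1 against 196 to 260 in SCC15 +YBX1.

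**Figure D5:**
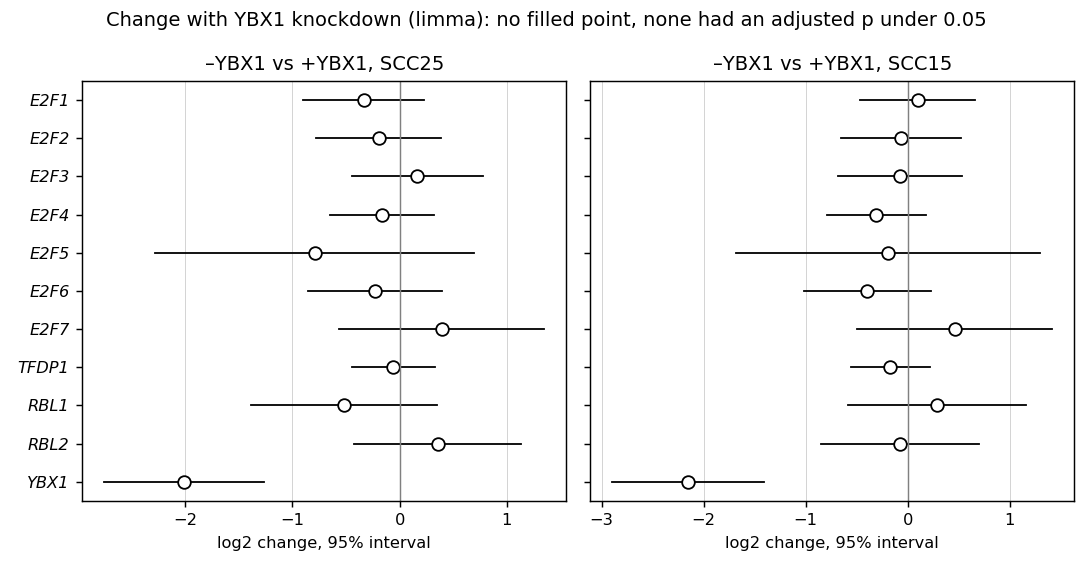
Change of each member and of YBX1 with knockdown, –YBX1 minus +YBX1 in log2 units (horizontal axis, its range set per panel), with 95% intervals from limma, in SCC25 and SCC15. YBX1 changed by -2.01 and -2.15, the intervals of all 10 members cross 0, and no point reached an adjusted p under 0.05.

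The pathway lists gave no call with knockdown either, 0 of 29 G1/S and 0 of 20 G2/M targets in each line. The G1/S list had a median change of -0.10 in SCC25, with 20 of 29 genes below 0, and of 0.01 in SCC15, with 12 of 29 below 0, beside medians of -0.02 and -0.01 over all genes. The G2/M list had -0.05 and -0.04, with 16 and 14 of 20 genes below 0. In SCC25 the 9 PRC1.6 genes were all below 0, with a median of -0.24, and in SCC15 7 of 9 were, with a median of -0.13. None of the 9 passed in either line, and the medians over all genes were again -0.02 and -0.01.

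Genes whose levels ran closest to a member over all 15 libraries were found by Pearson correlation of log2 CPM, as a description. The libraries come from 3 lines, so a difference between lines carries most of each value. For E2F1 they were FOXP2 (0.97), ZNF768 (0.97) and FAM184A (0.97), and for E2F2 SERPINF1 (0.99), RALGPS1 (0.97) and MAILR (0.97). For E2F3 they were EIF2B4, SDF2L1 and MRPS25, from 0.92 to 0.93, for E2F4 ELOA, MYH9 and MFN2, from 0.95 to 0.96, and for E2F5 GSE1, SNX22 and HPRT1, each at 0.97. E2F6 had SNHG3, KIAA1191 and NCOA1 at 0.91, and E2F7 GOSR1 (0.94), FJX1 (0.92) and UBE2Q2 (0.90). TFDP1 had HSPA8, HSPH1 and CLP1 at 0.91, RBL1 had SPOCD1, ACD and NSD3 at 0.93, and RBL2 had CLPX (0.87), ASPM (0.85) and WNK1 (0.82). None of the 30 places was taken by another member.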

How the data were processed

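RNA of 15 libraries was sequenced with QuantSeq 3′ FWD as 75-base single reads. Per the study's methods, the authors used Cutadapt for trimming, HISAT2 for alignment to hg38, featureCounts for counting and limma for normalisation. The annotation, the strand setting and the handling of multiple matches are not given in the sources used here. The deposited values are log2 CPM, which include 0.5 reads added to each count, in 2 tables of the same 12995 genes (12719 with a symbol). They share 6 libraries, whose values differ by at most 5e-08. From the size of 1 read, 100% of values gave whole reads (within 0.05 reads), which supplied the read counts printed and the voom alternative.

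Each table was fitted apart in limma 3.58.1 (R 4.3.3; lmFit, eBayes with trend, all groups of a table), with two-sided p-values adjusted across the whole table (Benjamini-Hochberg). Because the unit is log2, no count model was used. OKF6, SCC25 and SCC15 +YBX1 form the line table and the 4 SCC groups the YBX1 table, so +YBX1 libraries enter both. The code was tested on simulated data. The members and the pathway and marker lists were chosen with earlier results of these data known. Named genes are all members, YBX1, the 3 closest genes of each member and, from each list, genes past the threshold. The result of 1 marker is not reported here. Ratios of pooled reads carry exact 95% intervals for counting error. Gene positions and opposite-strand genes follow GENCODE release 44, promoters RefSeq on GRCh38.p14, and pieces of 3′ ends were aligned to hg38 with minimap2 2.31. Depth was 4075290 to 6118501 counted reads a library, where 3 reads are at most 0.677 CPM.

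Over 6497 genes the deviations of same-numbered –YBX1 and +YBX1 libraries of a line correlated at 0.135, 0.47 and 0.425 in SCC25. In SCC15 the correlations were 0.498, 0.312 and 0.117. Libraries of different numbers gave -0.529 to 0.239 in SCC25 and -0.41 to 0.345 in SCC15. Those ranges reach past some same-numbered values, so the pairing is uncertain. The main fits used the group alone, without pairs. Equal numbers were taken as pairs only in the pair counts and, as a block, in an alternative fit. The labels give the numbers but do not say that they mark pairs. The alternatives tried were leaving out each library, the replicate block, a fit of the compared groups alone, quantile normalization, equal medians, voom weights, a robust prior, no trend, 2 reads added, a filter on low values and a threshold of 0.01.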

Additional observations from a re-analysis of the deposited data

How the results depend on the processing

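Depth limits E2F5 in OKF6 and SCC25, E2F8 and RBL1, which rest on few reads. The members called in SCC25 against OKF6 (2) became 0 at a threshold of 0.01, 1 with only the groups compared, and 0 to 4 when a library was left out, being 4 without OKF6 replicate 1 and 0 without OKF6 replicate 3, SCC25 +YBX1 replicate 1 or replicate 2. Other counts stayed within 1.5 times the reported one, 117 of 126 in all. With the replicate block 6, 2 and 6 members were called between lines (SCC15 against OKF6, SCC25 against OKF6, SCC15 against SCC25) and 0 with knockdown. Across lines the numbers did not pair the libraries (correlations -0.198 to 0.264), and a block of numbers shared by both lines, added after the data were seen, also gave 0. Over single members 1109 values kept direction and side of the threshold, 19 lost a call, 23 gained one and 43 changed sign, none of which was a called value. The signs that changed were for E2F4 in SCC25 against OKF6 (-0.0585 with quantile normalization), E2F5 there (-1.004 with quantile normalization and -0.24 with 2 reads added), TFDP1 in SCC15 against SCC25 (0.14 with equal medians and 0.23 with quantile normalization) and RBL2 there (0.0082 with equal medians). Leaving out a library gave sign changes within these ranges. In SCC25 against OKF6 they were -0.11 to 0.24 for E2F4, -0.85 to 1.68 for E2F5 and -0.0675 to 0.44 for E2F6. In SCC15 against SCC25 they were -0.32 to 0.0099 for RBL2 and -0.0915 to 0.0553 for TFDP1. With knockdown in SCC15 they were -0.0646 to 0.24 for E2F1, -0.41 to 0.12 for E2F2, -0.35 to 0.14 for E2F3 and -0.30 to 0.0828 for RBL2, and in SCC25 -0.14 to 0.0834 for TFDP1. For the difference between knockdowns they were -0.32 to 0.21 for E2F2, -0.088 to 0.33 for E2F4, -0.11 to 0.34 for E2F6, -0.45 to 0.35 for E2F7 and -0.051 to 0.26 for TFDP1. E2F5 fell under the filter on low values and has no value there. The cause of these differences was not tested.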
